A study of Homo sapiens with 12 samples.

Results

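RNA was sequenced from the nuclei of HEK293T cells, an established human embryonic kidney line, at 48 h from a transient Lipofectamine 2000 transfection with a pIRES2 plasmid that encoded SF3B1. One group received wild-type SF3B1 (WT) and the other SF3B1 with the K700E substitution. The 6 nuclear libraries, 3 per construct, were chosen by their titles from the 12 libraries of the series, whose other 6 come from the cytoplasm. Both groups carry an SF3B1 plasmid beside the cells' own SF3B1 gene, and samples of untransfected or empty-vector cells were not analysed here. The labels do not say whether replicate libraries stem from separate cultures. The p-values therefore cover the spread among these 6 libraries alone, and that spread may be technical. Each value below is from nuclear RNA unless the cytoplasm is named, and fewer cells that express a gene and less RNA per cell cannot be told apart.

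SF3B1 is the largest protein of the SF3b complex. As part of the U2 snRNP it holds the branch-point helix during the choice of the 3′ splice site. K700E, found in myelodysplastic syndromes and leukaemias, lies in its HEAT repeats and is known to let the spliceosome use cryptic 3′ splice sites. A nuclear fraction holds RNA that is being transcribed, spliced or kept back, together with mRNA on its way to export through the TREX complex and the receptor NXF1. The title of the series links the mutations to mRNA export and to THOC5, a TREX subunit. Nuclear levels of each gene under both constructs therefore bear on the question the study names.

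ARRDC4, TXNIP and PGK1 were given as the marker genes of the nuclear comparison, so their promoters are shown first. ARRDC4 and TXNIP are alpha-arrestins that lower glucose uptake. Both are textbook targets of MondoA and ChREBP, factors that bind a pair of E-box-like boxes called the carbohydrate response element (ChoRE). PGK1 makes ATP in glycolysis and is a textbook target of the hypoxia-inducible factors, whose element has the core ACGTG. The sequences are RefSeq promoters on GRCh38.p14, from 250 bases before to 50 bases after the transcription start, written 5′ to 3′ along the gene. ARRDC4 is chr15:97960453-97960752 on the plus strand, with the E-box CACGTG in capitals. TXNIP is the upstream one of its 2 listed promoters, chr1:145996530-145996829 on the minus strand, with a pair of CACGNG boxes and the 5 bases between them in capitals. PGK1 is chrX:78103998-78104297 on the plus strand, with ACGTG cores of both strands in capitals.
ARRDC4: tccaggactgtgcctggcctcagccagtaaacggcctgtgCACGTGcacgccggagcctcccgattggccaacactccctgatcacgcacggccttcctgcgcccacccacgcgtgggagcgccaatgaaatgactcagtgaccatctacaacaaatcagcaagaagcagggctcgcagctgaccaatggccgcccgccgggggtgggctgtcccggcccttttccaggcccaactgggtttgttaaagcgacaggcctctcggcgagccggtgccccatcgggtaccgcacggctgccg
TXNIP: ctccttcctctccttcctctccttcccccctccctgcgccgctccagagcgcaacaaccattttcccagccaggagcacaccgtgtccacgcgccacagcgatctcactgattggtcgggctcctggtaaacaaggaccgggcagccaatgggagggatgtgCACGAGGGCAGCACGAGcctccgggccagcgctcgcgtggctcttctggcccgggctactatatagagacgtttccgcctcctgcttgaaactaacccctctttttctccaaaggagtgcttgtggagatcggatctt
PGK1: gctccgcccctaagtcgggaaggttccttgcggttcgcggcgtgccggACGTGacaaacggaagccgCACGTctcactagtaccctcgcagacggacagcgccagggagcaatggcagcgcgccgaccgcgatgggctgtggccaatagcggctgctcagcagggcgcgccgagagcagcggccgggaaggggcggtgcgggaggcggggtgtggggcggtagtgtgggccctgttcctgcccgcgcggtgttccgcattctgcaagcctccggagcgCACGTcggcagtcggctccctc

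In ARRDC4 the E-box began at base -210, counted with the start site as 0, and contains the hypoxia core on both strands. In TXNIP the paired boxes began at -88 and a forkhead core (TGTTTAC on the reverse strand) at -124. In PGK1 the hypoxia cores began at -202, -183 and 28. Each motif was searched on both strands of 35116 promoters of 300 bases. CACGTG was found in 7.256% of them, ACGTG, which lies inside CACGTG, in 21.409%, TGTTTAC in 3.4229% and a general tandem E-box (CANNTG repeated after 5 bases) in 0.6863%. The stricter pair (CACGNG repeated after 5 bases), added after the TXNIP promoter had been seen, was found in 20 promoters (0.057%). None of the promoters shown held the general tandem E-box, and ARRDC4 and PGK1 did not hold the stricter pair either. These matches describe the letters in the window and show no binding.

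The 6 libraries held 9086743 to 11200562 counts each, with at least 1 count in 30007 to 32017 genes. SF3B1 itself was at 2851, 1282 and 1371 CPM (counts relative to the TMM-scaled library size) in WT libraries 1 to 3 and at 2220, 1231 and 2220 CPM in K700E libraries 1 to 3. The groups overlapped (two-sided exact permutation p = 1, where 3 against 3 cannot go below 0.1), and gene counts do not part plasmid from endogenous RNA. The summed 13 mitochondrially encoded mRNAs, which mark carry-over from the cytoplasm, were at 1283 ± 199 CPM (SD, n = 3) with WT and 1279 ± 189 CPM with K700E (exact permutation p = 1). Summed nuclear-retained long non-coding RNAs were at 6924 ± 2134 CPM with WT and 8407 ± 4363 CPM with K700E (exact permutation p = 0.7). All 3 exact p-values were 1 after adjustment. Of 6 HEK293T markers, VIM, NEFL, NEFM, INA and PAX2 were present in every library and LHX1 reached at most 1.16 CPM. Of 11 markers of other cells, CD3E had 0 counts in all 6 libraries, and PTPRC, HBB, LYZ, DCN, PECAM1 and MYH6 stayed under 1 CPM. ALB, COL3A1 and COL1A1 were measurable, and the summed list was at 171 CPM in WT 2 against 48.9 to 76.5 CPM in the other libraries, mostly from COL1A1 (133 CPM in WT 2). Its part in the results was not tested.

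Before the results, 2 libraries need naming. Gene by gene, the deviation of WT 2 from the mean of all 6 libraries was higher in genes whose transcripts had more GC (Pearson r = 0.55 across genes, which are not independent replicates), and that of K700E 2 was lower in them (r = -0.55). The other 4 libraries had r between -0.14 and 0.01. The libraries that were most alike carried different constructs and the same number. WT 1 and K700E 1 correlated at 0.983 over log2 CPM and WT 3 and K700E 3 at 0.975, while WT 2 and K700E 2 were at 0.911. Pairs within WT were at 0.905 to 0.951 and pairs within K700E at 0.958 to 0.966. Values are therefore also given with GC offsets, which remove each library's trend with GC content along with any true group difference that follows GC content, and without WT 2 and K700E 2, a choice made after the data were seen.

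No gene passed the test. Of 18623 genes tested with edgeR's quasi-likelihood test, 0 (0%) had a Benjamini-Hochberg adjusted p under 0.05, and the smallest was 0.693. At an unadjusted p under 0.05 there were 695 genes (3.73%), of which 237 (1.27%) were higher and 458 (2.46%) lower with K700E. DESeq2 called 1 gene, UQCRC2, and limma voom called 0 with 547 genes at an unadjusted p under 0.05. In 841 genes (4.52%) all K700E libraries lay above all WT libraries, and in 831 (4.46%) all lay below. The median log2 fold change was -0.02. A typical gene's 95% interval reached 0.80 on the log2 scale to each side of its estimate, without adjustment over genes. The genes below are given as values, ordered by role, and none of their differences passed over all genes.

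ARRDC4 was at 59.2, 48.5 and 58.2 CPM in WT libraries 1 to 3 and at 79.0, 288 and 105 CPM in K700E libraries 1 to 3. All K700E libraries lay above all WT libraries, with K700E 2 far above the rest. The log2 fold change was 1.51 ± 0.41 (SE, n = 3 per group; edgeR adjusted p = 0.829). It was 1.30 with GC offsets, 0.75 without K700E 2 and 0.65 without both steep libraries. In the cytoplasm the same difference was 1.22 ± 0.39, and the test of nucleus against cytoplasm gave 0.26 (unadjusted p = 0.64). The gene lies at chr15:97960698-97973838 in GENCODE 29 and overlaps no other annotated gene.

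TXNIP, which also binds thioredoxin, was at 86.8, 43.8 and 29.5 CPM with WT and at 81.8, 234 and 117 CPM with K700E. WT 1 lay above K700E 1, so the groups overlapped, and K700E 2 was again the highest library. The log2 fold change was 1.43 ± 0.43 (edgeR adjusted p = 0.829), 1.24 with GC offsets, 0.92 without K700E 2 and 0.78 without both steep libraries. Without WT 1 it was 1.99 and passed (edgeR adjusted p = 0.0233), and ARRDC4 did not (adjusted p = 0.103). The cytoplasmic difference of TXNIP was 1.89 ± 0.45.

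The other genes of this group did not share these values. Of 12 alpha-arrestins and glucose-responsive genes 10 were tested, 5 above and 5 below 0, with a median of -0.09 against -0.02 over all genes and 0.10 with GC offsets. Apart from ARRDC4 and TXNIP, which the choice of markers favours, the list's lowest unadjusted p-values were those of ARRDC1 (-0.88 ± 0.37), another alpha-arrestin, and MLXIP (-0.68 ± 0.31), which encodes MondoA itself. With GC offsets ARRDC1 was at -0.36 and MLXIP at -0.35, and without the steep libraries at -0.18 and -0.25. ARRDC3 was at 50.2, 24.3 and 26.3 CPM with WT and 42.2, 64.4 and 28.5 CPM with K700E, overlapping. MLX, the partner of MondoA, was at -0.58 ± 0.32, and the glucose-responsive KLF10 at 0.56 ± 0.34.

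PGK1 was at 227, 181 and 292 CPM with WT and at 364, 552 and 397 CPM with K700E. No K700E library reached down to the highest WT library. The log2 fold change was 0.91 ± 0.29 (edgeR adjusted p = 0.829), 0.75 with GC offsets, 0.72 without K700E 2 and 0.55 without both steep libraries. The cytoplasmic difference was 0.19 ± 0.23, and nucleus against cytoplasm gave 0.69 (unadjusted p = 0.045, adjusted p = 0.980). The PGK1 gene model shares its strand with part of ATP7A and holds PGAM4 on the other strand, and whether counting used the strand is not given in the sources used here.

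The glycolysis list lay on both sides of 0. Of 21 tested genes for glycolytic enzymes and glucose transporters, 9 were above and 12 below 0, with a median of -0.14 (0.04 with GC offsets). Without overlap 1 was higher, the given marker PGK1, and 0 lower, against 4.52% and 4.46% of all genes. GAPDH was at 267, 243 and 187 CPM with WT and 312, 186 and 222 CPM with K700E (0.05 ± 0.29). ENO1 was at -0.13 ± 0.26 and PKM at 0.09 ± 0.26. LDHA, lactate dehydrogenase A, had 4 counts over all 6 libraries and was not tested. Members of other lists were as low, such as RPS18 (3 counts), RPL7A (11) and NDUFS3 (11). Whether such counts reflect the RNA or the way reads were counted was not tested.

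**Figure D1:**
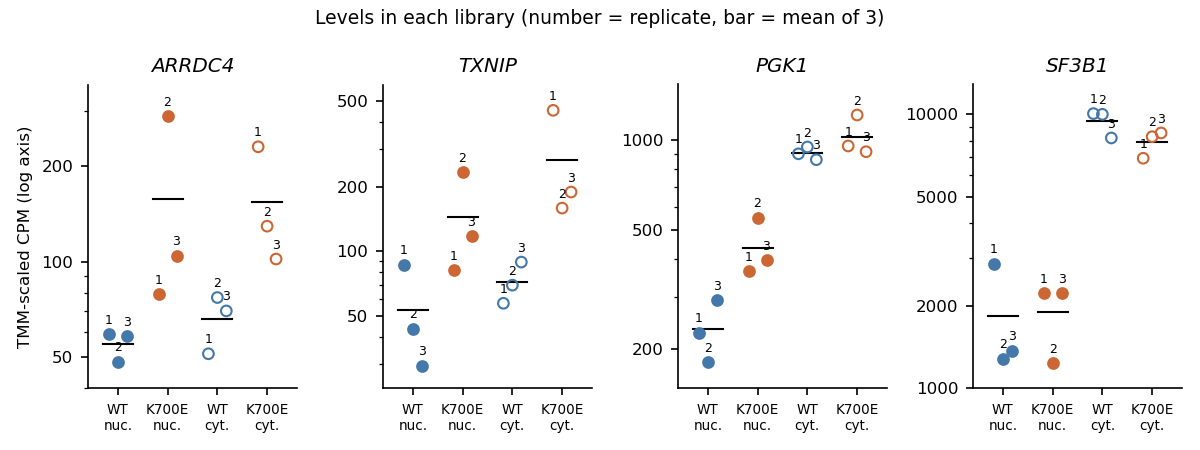
Level of ARRDC4, TXNIP, PGK1 and SF3B1 in each library in TMM-scaled CPM on a log axis, with filled points for nuclei, open points for cytoplasm, numbers for replicates and bars for the mean of 3. K700E 2 is the highest nuclear library for ARRDC4 (288 CPM), TXNIP (234 CPM) and PGK1 (552 CPM), and the SF3B1 groups overlap in nuclei.

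Among hypoxia-induced genes, targets of the hypoxia-inducible factors outside glycolysis, 21 of 26 tested members were above 0 and 5 below. The median was 0.28 against -0.02 over all genes. It was 0.35 with GC offsets, 0.23 without the steep libraries and between 0.21 and 0.37 with each library left out in turn. At an unadjusted p under 0.05, 4 members were higher (1.27% of all genes) and 0 lower, and in 3 the groups did not overlap, higher with K700E (4.52% of all genes). CA9 and MIR210HG were too low to test. By library, the median deviation from each gene's mean was -0.31, -0.30 and 0.07 in WT 1 to 3 and 0.14, 0.16 and 0.10 in K700E 1 to 3 (log2 of CPM plus 0.5), so WT 3 lay close to the K700E libraries.

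BNIP3L, a receptor for the removal of mitochondria, was at 34.7, 26.8 and 32.0 CPM with WT and 50.0, 80.4 and 38.8 CPM with K700E, without overlap (0.86 ± 0.32). ANKRD37 was at 7.29, 12.3 and 10.6 CPM with WT and 16.0, 20.5 and 17.2 CPM with K700E, also without overlap (0.83 ± 0.34, and 0.89 without the steep libraries). KDM3A, a histone H3 lysine 9 demethylase, was at 243, 149 and 229 CPM with WT and 276, 285 and 279 CPM with K700E (0.43 ± 0.28). INSIG2, which holds SREBP in the endoplasmic reticulum, was at 0.91 ± 0.34, and P4HA1, a collagen prolyl hydroxylase, at 0.78 ± 0.33, both with overlapping groups. Without the steep libraries BNIP3L was at 0.41, INSIG2 at 0.38, P4HA1 at 0.22 and KDM3A at 0.23. Other members lay near 0, such as VEGFA (0.09 ± 0.26), the oxygen sensor EGLN1 (-0.07 ± 0.36) and ADM (0.07 ± 0.41). ANGPTL4 had the lowest value (-0.90 ± 0.63). In the cytoplasmic libraries 23 of the 26 were above 0, against 49.8% of all genes tested.

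Genes of the oxidative machinery lay mostly below 0, as did several other lists. Of 77 tested nuclear-encoded respiratory chain genes, 57 were below and 20 above 0, with a median of -0.19 (-0.20 with GC offsets and -0.21 without the steep libraries). It ran from -0.30 to -0.03 with each library left out in turn, and the -0.03 was without K700E 3. In 10 members all K700E libraries lay below all WT libraries (4.46% of all genes) and in 0 above, and 5 were lower at an unadjusted p under 0.05 (2.46% of all genes). By complex, the counts below 0 were 24 of 35 for complex I, 2 of 4 for complex II, 9 of 10 for complex III, 8 of 11 for complex IV and 14 of 17 for ATP synthase. By library, the median deviation was 0.10, 0.30 and -0.11 in WT 1 to 3 and 0.01, 0.07 and -0.42 in K700E 1 to 3. K700E 3 was the lowest library and the other 5 overlapped. K700E 3 had the lowest deviation in 11 of the 31 lists, among them cytosolic ribosomal proteins (-0.57), p53 targets (-0.46) and the ER list (-0.35). In these lists WT 3, the library of the same number, was the lowest WT library, at -0.27, -0.41 and -0.22. The part of K700E 3 in the result was not tested beyond leaving it out. Without the steep libraries 66 of the 77 respiratory chain genes were below 0. So were 68 of 75 cytosolic ribosomal proteins, 19 of 21 heat shock genes, 22 of 26 immediate early genes and 22 of 26 p53 targets. DNA replication genes were nearer to even, with 24 of 41 below 0, and of 26 hypoxia-induced genes 4 were below 0.

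UQCRC2, a core subunit of complex III, had the smallest p-value of all genes. It was at 9.27, 6.09 and 17.0 CPM with WT and at 1.57, 1.56 and 1.25 CPM with K700E, without overlap. The raw counts were 103, 58 and 161 against 17, 15 and 12. Whether so few counts reflect the RNA or the way reads were counted was not tested. The log2 fold change was -2.87 ± 0.49 (unadjusted p = 3.7e-05, edgeR adjusted p = 0.693), -2.93 with GC offsets and -3.20 without the steep libraries. DESeq2 called it (adjusted p = 0.000286), and so did edgeR without WT 1 (adjusted p = 0.00374). In the cytoplasm UQCRC2 was at 2.42 to 3.16 CPM with WT and 2.09 to 5.20 CPM with K700E, a log2 difference of 0.42. Nucleus against cytoplasm gave -3.31 (unadjusted p = 7.6e-05, adjusted p = 0.771).

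Other members of the chain lay closer to 0. NDUFA3 was at 2.43, 3.15 and 1.27 CPM with WT and 0.555, 0.312 and 0.521 CPM with K700E (-2.27 ± 0.66), a gene of few counts. NDUFS8, an iron-sulfur subunit of complex I, was at 64.9, 89.2 and 52.7 CPM with WT and 50.1, 34.2 and 32.8 CPM with K700E (-0.82 ± 0.31, -0.47 with GC offsets). CYC1, cytochrome c1, was at 114, 234 and 127 CPM with WT and 109, 79.7 and 84.6 CPM with K700E (-0.80 ± 0.32, but -0.27 with GC offsets). ATP5F1D, the delta subunit of ATP synthase, was at -1.30 ± 0.42 and at -0.41 without the steep libraries. SDHA, the flavoprotein of complex II, changed little between settings (-0.55 ± 0.29, -0.51 with GC offsets and -0.49 without the steep libraries).

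Mitochondrial ribosomal proteins, which make the subunits encoded in mitochondria, also lay below 0 in the median. Of 73 tested, 50 were below 0, with a median of -0.18 (-0.15 with GC offsets, -0.16 without the steep libraries, -0.09 without K700E 3). Without overlap 7 were lower and 1 higher (4.46% and 4.52% of all genes). K700E 3 was the lowest library (-0.25) and WT 3 the lowest WT library (-0.06). The 13 mitochondrially encoded mRNAs had a median of -0.09 and no member with separate groups. For proteasome subunits, which form the protease that degrades ubiquitin-tagged proteins, 23 of 33 were below 0 (median -0.10), 31 of 33 with GC offsets (median -0.21) and 30 of 33 without the steep libraries (median -0.19). Over all genes 48.3% were above 0 with GC offsets. Without K700E 3 the proteasome median was 0.00. Without overlap 5 proteasome genes were lower and 0 higher (4.46% and 4.52% of all genes), such as PSMC5, an ATPase of the base (132, 193 and 117 CPM with WT; 110, 79.0 and 99.4 CPM with K700E; -0.62 ± 0.29) and PSMB5, the chymotrypsin-like subunit (-0.61 ± 0.30). Without the steep libraries PSMC5 was at -0.25 and PSMB5 at -0.32. By library the list was lowest in K700E 3 (-0.32), and its deviations in the other 5 libraries, from -0.06 to 0.19, overlapped. In the cytoplasm 32 of 33 proteasome and 67 of 77 respiratory chain genes were below 0.

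**Figure D2:**
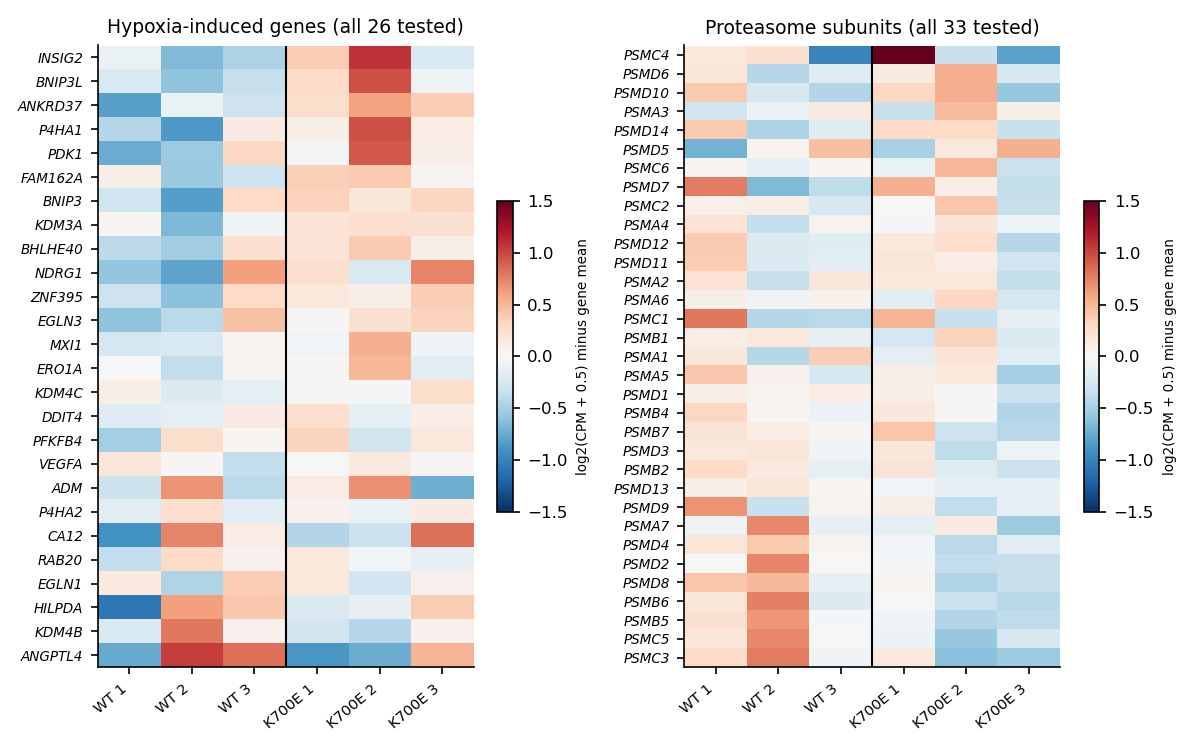
Deviation of log2(CPM + 0.5) from each gene's mean in the 6 nuclear libraries for all 26 tested hypoxia-induced genes and all 33 tested proteasome subunits, each sorted by fold change. Red is above and blue below the gene's mean. The hypoxia list is lowest in WT 1 and WT 2, and the proteasome list is lowest in K700E 3.

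Factors of SF3B1's own reaction lay on both sides of 0. Of 23 tested SF3 and branch-point factors 10 were above and 13 below 0 (median -0.02), with 2 lower and 0 higher at an unadjusted p under 0.05 (2.46% and 1.27% of all genes), and SF3B1 was at 0.04 ± 0.36. SF3B4, the SF3b subunit that contacts RNA upstream of the branch point, was at 48.2, 58.0 and 29.4 CPM with WT and 32.9, 19.4 and 22.5 CPM with K700E, overlapping (-0.86 ± 0.33, -0.60 with GC offsets and -0.48 without the steep libraries). SUGP1, a partner that K700E is known to lose, was at 69.8, 165 and 93.7 CPM with WT and 60.1, 50.0 and 79.1 CPM with K700E (-0.80 ± 0.34, -0.42 with GC offsets and -0.23 without the steep libraries). WT 2 was the highest library for both. SF3B2 (-0.19 ± 0.28), SF3B3 (-0.18 ± 0.27), SF3A3 (-0.00 ± 0.27) and U2AF1 (0.24 ± 0.27) had overlapping groups. U2SURP (0.52 ± 0.29) and HTATSF1 (0.33 ± 0.27) did not, both higher with K700E, and with GC offsets U2SURP was at 0.23.

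THOC5 was at 60.1, 91.2 and 65.9 CPM with WT and 55.2, 55.4 and 74.9 CPM with K700E. The groups overlapped (-0.23 ± 0.29), and the sign turned to 0.05 without the steep libraries. The list of TREX and export genes, THOC5 included, had a median of -0.05 over 29 tested, with 12 above and 17 below 0. THOC6 was at 44.5, 97.5 and 38.5 CPM with WT and 46.9, 26.3 and 26.3 CPM with K700E (-0.86 ± 0.38; -0.40 with GC offsets and -0.18 without the steep libraries). THOC1 (0.41 ± 0.27), THOC2 (0.41 ± 0.29), THOC3 (-0.35 ± 0.34) and THOC7 (0.18 ± 0.31, -0.02 with GC offsets) differed in sign. THOC1 was at 250, 209 and 275 CPM with WT and 281, 397 and 298 CPM with K700E, without overlap. Over the list 1 member was higher and 1 lower without overlap (4.52% and 4.46% of all genes). With GC offsets THOC1 and THOC2 were both at 0.13. The adaptor ALYREF was at -0.45 ± 0.34 and the receptor NXF1 at -0.46 ± 0.30, with overlapping groups in both. The paraspeckle scaffold NEAT1 was at 695, 1478 and 1229 CPM with WT and 689, 1277 and 1080 CPM with K700E (-0.16 ± 0.33). MALAT1 ran from 1933 to 9872 CPM among the K700E libraries alone (0.41 ± 0.47).

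Genes known to keep introns in the nucleus, called detained-intron genes, had 24 of 29 members above 0 and a median of 0.26. That median was 0.05 with GC offsets and 0.02 without the steep libraries, and the list's median GC content was 41.3% against 47.4% over all genes. In the cytoplasm the list lay the other way, with 26 of 29 members below 0 and a median of -0.33, where 49.8% of all genes were above 0. At an unadjusted p under 0.05, 1 member was higher (1.27% of all genes) and 0 lower (2.46% of all genes). Without overlap 4 were higher and 0 lower (4.52% and 4.46% of all genes). The 1 member was PNISR, at 912, 391 and 829 CPM with WT and 1045, 1617 and 1023 CPM with K700E (0.79 ± 0.34, and 0.25 without the steep libraries). OGT, whose detained introns respond to the level of its own sugar modification, was at 0.49 ± 0.29. Across 23 tested genes that SF3B1 mutants are known to mis-splice, 15 were below 0 (median -0.13). Of them 0 passed an unadjusted p of 0.05, against 3.73% of all genes. BRD9, a chromatin remodeller subunit that loses expression in mutant cells through a poison exon, was at 110, 170 and 136 CPM with WT and 115, 88.8 and 119 CPM with K700E (-0.36 ± 0.28). MAP3K7 was at 0.46 ± 0.30 and PPP2R5A at -0.08 ± 0.28. Counts per gene do not show which splice sites were used, and splicing was not analysed here.

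By rank, the 15 genes with the smallest p in each direction, at 5 CPM or more, ran from 1.77-fold to 3.66-fold higher and from 1.94-fold to 7.33-fold lower. All were at adjusted p = 0.829 except UQCRC2. The higher ones were BCHE, ARRDC4, CCDC168, GPRIN3, TXNIP, ENDOD1, PGK1, NPR3, MEF2C-AS1, RNF152, GOLT1B, KIF15, IGIP, ARHGAP29 and EPHA3. The lower ones were UQCRC2, GTF2H1, FBXW9, ZMYND10, FAM174C, DPP9, STAG3L1, ATP5F1D, WDR83, SRM, WDR24, SYNE4, INTS3, MAP1S and ZNHIT2. The values that ranked them describe them and support nothing further.

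BCHE, butyrylcholinesterase, was at 3.06, 2.94 and 3.28 CPM with WT and 5.92, 21.4 and 6.78 CPM with K700E (1.87 ± 0.51; 1.06 without K700E 2). CCDC168 was steadier, at 23.4, 16.9 and 17.0 CPM with WT and 40.3, 36.4 and 36.1 CPM with K700E (0.97 ± 0.29, 0.92 without the steep libraries). NPR3, the clearance receptor of natriuretic peptides, was at 7.11, 3.57 and 3.38 CPM with WT and 15.9, 10.3 and 8.55 CPM with K700E (1.30 ± 0.43, 1.21 without the steep libraries). It was also higher in the cytoplasm, at 0.98 to 2.24 CPM with WT and 4.84 to 9.59 CPM with K700E. KIF15, a mitotic kinesin, was at 2.16, 6.20 and 2.32 CPM with WT and 10.4, 6.54 and 11.1 CPM with K700E (1.39 ± 0.48), while the cytoplasm had -1.12 and nucleus against cytoplasm gave 2.51 (unadjusted p = 0.003, adjusted p = 0.980). For GPRIN3, GOLT1B and ENDOD1 the highest library was K700E 2, at 227, 287 and 15.5 CPM. MEF2C-AS1 overlaps MEF2C on the opposite strand, so its counts may hold reads of that gene.

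On the lower side GTF2H1, a subunit of the transcription and repair factor TFIIH, was at 1.80, 9.56 and 24.5 CPM with WT and 1.57, 1.35 and 2.19 CPM with K700E. WT 1 lay within the K700E range, and the log2 fold change was -2.80 ± 0.70 (-3.02 with GC offsets). SRM, spermidine synthase, was at 48.9, 59.5 and 36.7 CPM with WT and 33.3, 20.6 and 20.8 CPM with K700E, without overlap (-0.96 ± 0.31, -0.52 with GC offsets). FBXW9, an F-box protein, was at 26.1, 44.4 and 37.2 CPM with WT and 20.5, 10.5 and 14.6 CPM with K700E (-1.24 ± 0.34, -0.81 with GC offsets). INTS3, an Integrator subunit, rested on WT 2, at 11.3, 36.1 and 5.71 CPM with WT and 6.84, 3.84 and 6.26 CPM with K700E (-1.64 ± 0.55, -0.59 without WT 2). WDR83 overlaps DHPS on the opposite strand. STAG3L1 is 1 of several near-identical copies, so its counts are uncertain.

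**Figure D3:**
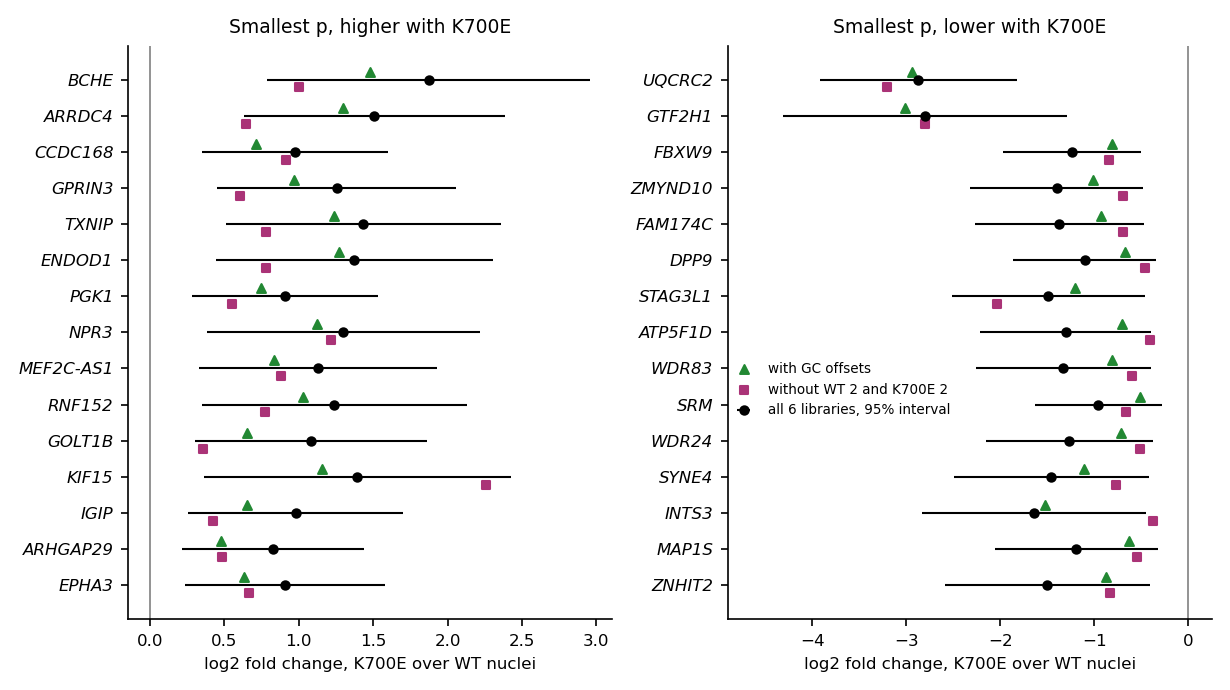
Log2 fold change of K700E over WT nuclei for the 15 genes with the smallest p in each direction. Circles with 95% intervals use all 6 libraries, triangles add GC offsets and squares leave out WT 2 and K700E 2. The median of the higher genes falls from 1.24 to 0.97 and 0.78, whereas KIF15 (2.26) and STAG3L1 (-2.04) lie further from 0 without the 2 libraries.

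The median GC content of the longest transcript was 40.6% for the higher 15 and 59.9% for the lower 15, against 47.4% over all genes. K700E 2 was the highest library in 12 of the higher genes and WT 2 the highest in 12 of the lower ones, which the rank itself favours, since it used these libraries. The median of the higher genes was 1.24, 0.97 with GC offsets and 0.78 without the steep libraries, and that of the lower ones -1.38, -0.88 and -0.69. In the cytoplasm 13 of the higher genes were above 0 and 11 of the lower ones below 0.

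The same order ran through all genes. In 5 equal groups of genes by GC content, from low to high, the median log2 fold change was 0.30, 0.18, 0.03, -0.22 and -0.48. With GC offsets, by construction, the medians were 0.02, 0.00, -0.01, -0.02 and -0.05. Without the steep libraries they were 0.00, 0.02, 0.02, -0.03 and -0.07, which follows from leaving out the libraries that carry the trend. Of 458 genes lower at an unadjusted p under 0.05, 319 lay in the group of highest GC content (3620 genes), and of 237 higher ones 137 lay in that of lowest GC content (3621 genes). Whether WT 2 and K700E 2 differ in the cells or in the preparation cannot be told apart with 1 such library per construct.

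**Figure D4:**
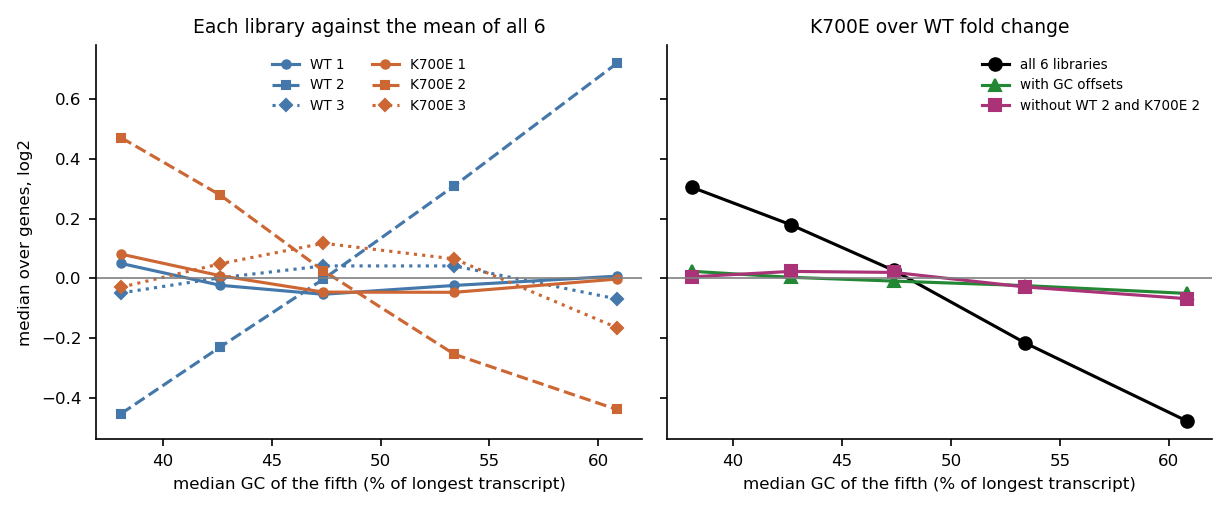
Left, median deviation of each nuclear library from the mean of all 6 (log2) in 5 equal groups of genes by transcript GC content. Right, median log2 fold change of K700E over WT in the same groups. WT 2 rises from -0.45 to 0.72 and K700E 2 falls from 0.47 to -0.44, and the fold change falls from 0.30 to -0.48 with all 6 libraries but stays between -0.07 and 0.02 with offsets or without the 2 libraries.

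Gene size and GC content were linked, but the trend with size did not rest on the steep libraries alone. Each library's deviation correlated with log2 gene length at r = 0.02, -0.13 and -0.13 in WT 1 to 3. In K700E 1 to 3 it was 0.09, 0.13 and 0.05, across genes that are not independent replicates. Protein-coding genes were put in 5 equal groups by their length on the genome. Their median GC content was 56.0% in the shortest group and 44.4% in the longest. The median log2 fold change was -0.27 in the shortest group (up to 11417 bases) and 0.18 in the longest (105128 bases or more). With GC offsets these were -0.05 and 0.08, and without the steep libraries -0.10 and 0.09, so a smaller trend in the same direction was left. Without overlap, 274 of the 2669 longest genes were higher and 35 lower, against 642 and 636 of all 13343 protein-coding genes. In genes with 20 or more introns 177 of 2046 were higher without overlap and 49 lower. Their median was 0.08, 0.05 with GC offsets and 0.08 without the steep libraries. Their median GC content was 47.1%, against 48% over all protein-coding genes. In genes with no intron the counts were 9 higher and 12 lower of 207 (median -0.04). Long non-coding RNAs had a median of -0.04 over 2959 genes. Small nuclear and nucleolar RNAs had a median of -0.12 over 155 genes, and -0.29 with GC offsets. Without overlap 3 of them were higher and 3 lower, against 4.52% and 4.46% of all genes.

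Immediate early genes (26 tested) had a median of -0.14, -0.06 with GC offsets and -0.24 without the steep libraries. Host genes of snoRNAs (20 tested) had one of -0.13, -0.09 and -0.15 in the same settings, and heat shock genes (21 tested) one of -0.03, -0.14 and -0.24. Tubulins (19 tested) had a median of -0.23 that became 0.09 with GC offsets, and polyamine genes (19 tested) one of -0.22 that became 0.04. Targets of FOXO-type factors had 15 of 19 members above 0 and a median of 0.14, which was 0.14 with GC offsets and -0.04 without the steep libraries. Among them KLF9 (0.75 ± 0.33) and SESN3 (0.75 ± 0.35) were higher at an unadjusted p under 0.05 (1.27% of all genes) and 0 lower (2.46%). Both genes were highest in K700E 2. Without the steep libraries KLF9 was at 0.25 and SESN3 at 0.30. The unfolded protein and ATF4 list had a median of -0.13 over 24 tested and 0.01 with GC offsets. Its VLDLR, a lipoprotein receptor, was at 30.3, 30.9 and 32.4 CPM with WT and 40.5, 65.4 and 50.5 CPM with K700E, without overlap (0.74 ± 0.29, 0.53 without the steep libraries). Of 75 cytosolic ribosomal proteins tested, 50 were below 0 (median -0.10). With GC offsets 56 were below 0 (median -0.10), and without the steep libraries 68 (median -0.12). With each library left out in turn the median ran from -0.29 to 0.09. Without overlap 0 were higher and 0 lower (4.52% and 4.46% of all genes). Interferon-stimulated genes (0.05), p53 targets (-0.09), cholesterol synthesis (-0.02), DNA replication (-0.04) and iron and heme genes (-0.06) lay within 0.1 of 0 with all 6 libraries. Without the steep libraries interferon-stimulated genes were at 0.16 and p53 targets at -0.16. Cholesterol synthesis was then at -0.07, DNA replication at -0.02 and iron and heme genes at -0.02.

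**Figure D5:**
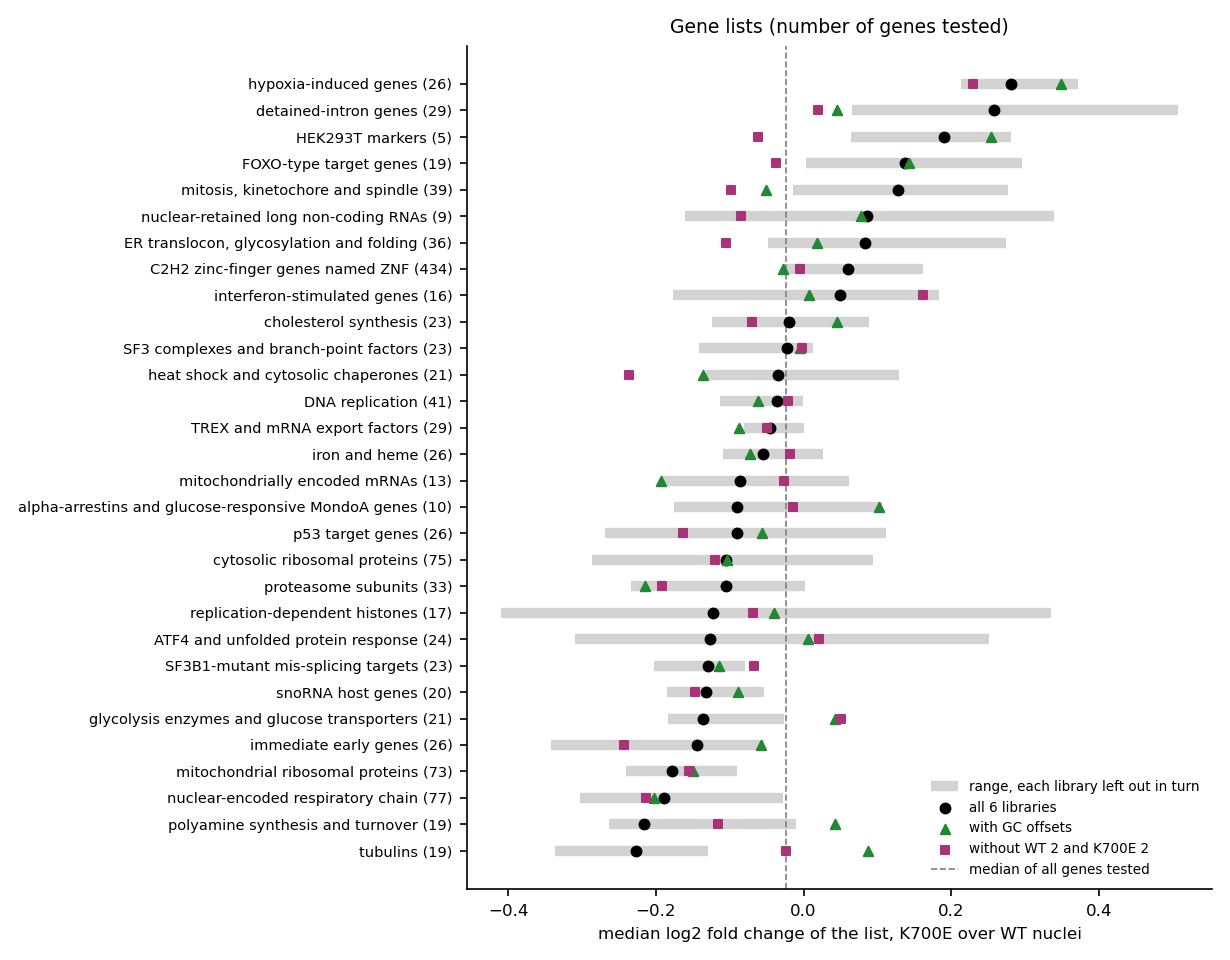
Median log2 fold change of K700E over WT nuclei for each list with 5 or more tested genes. Black circles use all 6 libraries, triangles add GC offsets, squares leave out WT 2 and K700E 2, grey bars span the values with each library left out in turn and the dashed line is the median of all genes (-0.02). Hypoxia-induced genes stay above 0.2 in all of these. Respiratory chain genes stay below 0, as do other lists such as mitochondrial ribosomal proteins, snoRNA host genes and immediate early genes. Detained-intron genes and tubulins move towards or past 0. All settings reuse the same libraries, and the lists were chosen with earlier results of these data known. An unchanged sign is therefore no separate support.

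The difference between constructs was also tested for being unequal in nucleus and cytoplasm over all 12 libraries. Of 20394 genes tested, 0 (0%) passed in edgeR, where the smallest adjusted p was 0.771. An unadjusted p below 0.05 was reached by 672 genes (3.30%). No difference above is therefore shown to be particular to the nucleus. The ranked genes were chosen on the nuclear difference that this test contains, so their values are a description. The values of those at an unadjusted p under 0.05 include UQCRC2 (-3.31), GTF2H1 (-3.60), STAG3L1 (-1.86), ENDOD1 (1.21), MEF2C-AS1 (1.31), KIF15 (2.51) and PGK1 (0.69).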

How the data were processed

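RNA of the nuclear fraction was taken with Trizol, and libraries were made with a NEBNext Ultra kit from 1 ug of RNA, per the labels' protocols. The authors deposited raw read counts per gene, 1 file per library. The submitters' processing notes name HISAT2 and DESeq. Which genome build and counting program were used, and whether with strand, is not given in the sources used here. The test was the quasi-likelihood test of edgeR 4.0.16 under R 4.3.3 (TMM scaling, genes passing a minimum count of 10 and a total of 15, Benjamini-Hochberg adjusted p under 0.05). Alternatives used DESeq2 1.42.0, limma 3.58.1, other scalings and filters, a replicate block, GC offsets (a spline with 4 degrees of freedom per library) and each library left out. Of 67049 gene IDs, 60652 are in GENCODE 29, and 0.172% of counts fell on the others. The scripts were tested on simulated counts.

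Genes were named by rule: the 3 markers, SF3B1, named export genes, the 15 genes with the smallest p in each direction at a mean of 5 CPM or more with an official symbol, and up to 4 members of each list with the smallest p. Members named beyond it, such as GAPDH, KDM3A, VEGFA, CYC1, SDHA, OGT and BRD9, were chosen after their values were seen. Some list members are counted but not reported here by name. The members and lists were chosen with earlier results of these data known.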

Additional observations from a re-analysis of the deposited data

How the results depend on the processing

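With other settings the count of genes called was 0, except for 1 (UQCRC2, lower) with DESeq2, 17 (7 higher, 10 lower) with no filter beyond 1 count, and 0 to 14 (0 to 2 higher, 0 to 12 lower) with each library left out in turn. The 14 came without WT 1, and 6 of them were also among the 17, of which 8 were genes of the filtered test. ARRDC4 (adjusted p = 0.018) and TXNIP (adjusted p = 0.0293) were called with no filter. Genes at an unadjusted p under 0.05 numbered 695, against 342 with GC offsets, 1080 with GC offsets and the replicate block, 1389 in a fit of all 12 libraries, 1669 with no filter, 2715 without WT 1, 241 without WT 2, 148 without K700E 2 and 85 without both steep libraries. With scaling by library size alone, 122 were higher and 661 lower, against 237 and 458. The replicate block left 0 genes called and 682 at an unadjusted p under 0.05. Same-numbered libraries had correlated deviations of 0.46, 0.04 and 0.23. K700E 1 and K700E 3 correlated best with the WT library of the same number, but K700E 2 with WT 3 (0.13). The numbers were not taken as pairs in the main test because the labels name no covariate. These correlations still hold the opposite GC trends of WT 2 and K700E 2, so they cannot settle whether the numbers are pairs. With GC offsets the block raised the genes at an unadjusted p under 0.05 from 342 to 1080, and 0 were called. The test of nucleus against cytoplasm called 31 genes with no filter and 0 to 1 with a library left out.

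The log2 ratio of SF3B1 was -0.0017 with library size alone and -0.16 to 0.51 with a library left out. That of mitochondrially encoded mRNAs was 0.0023 with DESeq2 size factors and -0.128 to 0.0820 with a library left out, and that of nuclear-retained RNAs -0.14 to 0.62. The 30 ranked genes kept their sign in all 540 alternative values, 8 of which passed. They were ranked on the same libraries that the alternatives use again, which favours an unchanged sign, so this is no separate support. The sign of other genes near 0 turned. With GC offsets, without and with the block, SF3B1 was at -0.12 and -0.13, THOC7 at -0.0222 and -0.0049, and ALB at -0.23 and -0.12. MALAT1 was at -0.0225 with both and at -0.19 with quality weights, where MT-CYB was at 0.14. ALB was also at -0.0746 with library size and -0.0018 with 1 CPM required. Without the steep libraries THOC7 was at -0.11, THOC5 at 0.0452, ENO3 at 0.12, RICTOR at -0.0257, MT-ND2 at 0.17, TRAM1 at -0.0468, PHGDH at 0.0197, H3C2 at 0.30, VIM at -0.26, INA at -0.31 and COL1A1 at 0.22. With each library left out in turn, the ranges that crossed 0 were -0.16 to 0.52 for SF3B1, -0.0149 to 0.40 for THOC7, -0.40 to 0.0810 for NEAT1, -0.17 to 0.84 for MALAT1, -0.87 to 0.0723 for ENO3, -0.90 to 0.0737 for DDX39A, -0.85 to 0.0956 for MT-ND2, -1.34 to 0.12 for CHAC1, -0.16 to 0.50 for VIM, -0.0409 to 0.30 for NEFL, -0.11 to 0.82 for INA, -1.08 to 0.25 for COL1A1 and -0.23 to 0.37 for ALB. The cause was not tested. The median 95% interval of a single gene reached 0.80 on the log2 scale to each side, before any adjustment over genes.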
